A study of Mus musculus with 2 samples.

Results

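The genes described here encode the subunits of RNA polymerase II, Mediator and Integrator. They were taken as all genes with at least 1 protein-coding transcript whose symbol is Polr2 followed by a letter from a to m, Med followed by a number, or Ints followed by a number, together with Cdk8, Cdk19 and Ccnc. The rule uses names only, no measured value, and it found 60 of 21901 genes with a protein-coding transcript: 13 of polymerase II, 33 of Mediator and 14 of Integrator. Ribosomal-RNA-depleted total RNA of the nucleoplasmic fraction was sequenced from primary macrophages that had been grown from bone marrow of C57BL/6J mice and stimulated with lipid A. Lipid A is the part of bacterial lipopolysaccharide that the receptor TLR4 senses; its dose was 100 ng/ml and its duration 90 min. There is 1 group of 2 biological replicates, both under the same donor entry, so their spread may be partly technical. The labels name no transgene, knockout or genetic change, and give neither age nor sex. Both libraries are stimulated and both are nuclear, so the values are levels in this state and fraction and measure neither induction nor export.

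RNA polymerase II copies protein-coding genes and many small nuclear RNA genes into RNA. Mediator is a large complex that bridges DNA-bound activators and the polymerase at promoters; its head and middle modules contact the polymerase, its tail meets activators, and a detachable kinase module regulates it. Integrator meets the polymerase early in transcription, where it cleaves nascent RNA, as in the 3′ end formation of small nuclear RNAs, and recruits a phosphatase that acts against pause release. In stimulated macrophages these machines serve the rapid switching on of inflammatory genes.

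Levels are given as deposited TPM, in which counts are divided by transcript length and scaled to a common total, so that genes of a library can be compared. Replicate 1 had a depth of 22669533 estimated counts and replicate 2 of 14939143, where a count of 0 allows up to 3 counts, a CPM of 0.132 and 0.201, for counting error only. Short features, with an effective length under 200 bases, made up 73.94% and 56.99% of the TPM. The TPM of the median gene tested was 0.39 higher in replicate 2 on the log2 scale, and ratios below are relative to that shift. All 8 macrophage markers examined reached 1 TPM in each library (sums 1871 and 2469 TPM). Of 28 markers of other blood, stromal or endothelial cells, 1 was, the dendritic factor Zbtb46 at a mean of 1.58 TPM; the T cell genes Cd3e and Cd3d and the neutrophil gene Ly6g were listed at 0 in both. In bulk RNA like this, fewer cells expressing a gene and less RNA per cell cannot be told apart. Estimated counts of the members ran from 9 to 6545 in a library, and 13 members had fewer than 50 in at least 1 library.

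Most subunit genes were present at low to moderate level. In each library 52 of 60 reached 1 TPM (background 39.1% of 21901 genes), and 9 of 60 reached 10 TPM in each (background 14.7%, or 37.7% among genes that reached 1 TPM in each). Their median was 3.89 TPM, 3.52 in replicate 1 and 4.24 in replicate 2, whereas the 9010 genes with a protein-coding transcript and a mean of at least 1 TPM, called the genes tested below, had a median of 7.0. Of the 60, 20 lay above that median. The median member thus stood at percentile 32.6 of the genes tested. The complexes spanned very different ranges: polymerase II genes lay within 9.74-fold of each other, Integrator genes within 15.9-fold, and the Mediator genes Med15 and Med30 were 93.1-fold apart, with Med12l lower still.

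**Figure D1:**
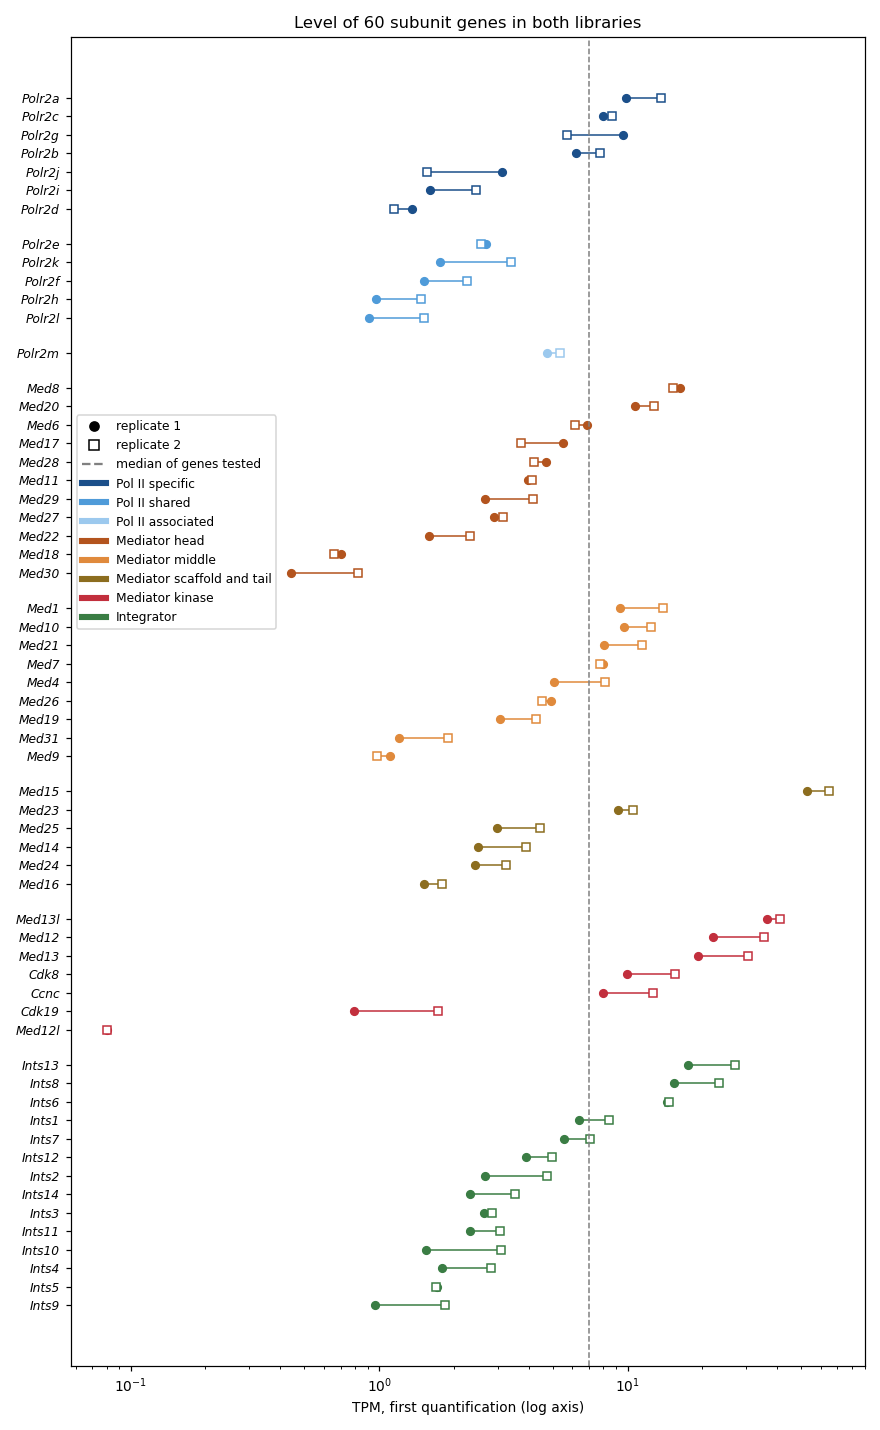
Level of each of the 60 subunit genes in TPM (log axis), with replicate 1 as a filled circle and replicate 2 as an open square, ordered by mean within each group; the dashed line is the median of the genes tested, 7.0 TPM. Med15 and Med13l of Mediator lie far to the right, Med12l far to the left at 0.08 TPM, and the shared polymerase subunits lie left of the line in both libraries.

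Among the subunits found only in polymerase II, Polr2a, which encodes the catalytic subunit with the heptad-repeat tail that is phosphorylated during transcription, stood at 9.87 TPM in replicate 1 and 13.69 in replicate 2, the highest mean of the group in the first quantification (chromosome 11, 69733997 to 69758637, mm10). Polr2c, part of the assembly platform, stood at 7.99 and 8.66 TPM. Polr2b, whose product forms the active site together with that of Polr2a, stood at 6.19 and 7.73 TPM. Deposited intervals were 9.06 to 10.58 and 12.11 to 14.40 TPM for Polr2a and 3.57 to 10.24 and 4.65 to 14.47 TPM for Polr2b. They overlapped in each library, so the order of the 2 by gene TPM is not resolved. Among coding transcripts, Polr2a-201 stood at 8.98 and 12.72 TPM and Polr2b-201 at 2.66 and 4.37. In the second quantification Polr2g was the highest of the group, at 14.93 and 10.33 TPM, and Polr2a stood at 6.80 and 9.76. The stalk of the enzyme is a pair, and its genes were far apart: Polr2g stood at 9.61 and 5.72 TPM, and its partner Polr2d at 1.35 and 1.15. Polr2j, which pairs with Polr2c in the platform, stood at 3.12 and 1.56 TPM. Polr2i, which acts in proofreading, stood at 1.60 and 2.45 TPM from 19 and 13 counts. Partners within the enzyme thus had unequal RNA levels in this fraction, and the gap between Polr2g and Polr2d exceeded the difference between libraries of either.

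All 5 subunits that polymerase II shares with RNA polymerases I and III were below the median of the genes tested in both libraries. Polr2e stood at 2.69 and 2.57 TPM, and Polr2k at 1.76 and 3.40 TPM from only 19 and 18 counts. Polr2e was above Polr2k in replicate 1 and below it in replicate 2, and in the second quantification Polr2f had the highest mean of the 5, 4.49 TPM. Polr2f stood at 1.51 and 2.25, Polr2h at 0.97 and 1.47, and Polr2l at 0.91 and 1.51 TPM, so that 3 of the 5 reached 1 TPM in each library. The ranges of Polr2h and Polr2l overlapped, and their order is not resolved. As a group, the shared subunits had a median of 1.88 TPM and the polymerase II-specific subunits 6.96 TPM. Polr2m, which encodes a polymerase-bound protein whose inhibition of initiation Mediator relieves, stood at 4.72 and 5.34 TPM.

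Near copies and neighbours bear on some of these values. Gm7511 holds a copy of 46.8% of Polr2h at 97% identity or more, and Gm20305 a copy of 29.5% of Polr2k; Gm20305 was listed at 0 TPM in the first quantification and at 2.97 and 8.45 TPM in the second, so reads of Polr2k may be shared with it. Of the 60 members, 27 have exon bases that a gene on the opposite strand also covers, among them 26.8% of the exon bases of Polr2i (with Tbcb) and 15.9% of those of Polr2j (with Lrwd1). Whether the counting used strand is not given in the sources used here, so reads of such pairs cannot be told apart.

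The kinase module had the highest median of the Mediator modules, 12.73 TPM, and holds 3 pairs of paralogues. Med12, whose product activates the kinase, stood at 21.99 and 35.42 TPM, while its paralogue Med12l stood at 0.08 in both libraries, from 26 and 15 counts. Med12 was therefore 275-fold and 443-fold above Med12l, and 184-fold and 145-fold in the second quantification. Med13l and Med13 encode alternative links between the kinase and the rest of Mediator. Med13l stood at 36.56 and 41.24 TPM and Med13 at 19.14 and 30.42, a ratio of 1.91 and 1.36. Of the alternative kinases, Cdk8 stood at 9.97 and 15.49 TPM and Cdk19 at 0.79 and 1.73. By gene TPM, Cdk8 was thus 12.6-fold and 8.95-fold higher. Coding transcripts took 20.1% of the TPM of Cdk8 and 93.1% of that of Cdk19, so among them the gap was smaller. Ccnc, the cyclin partner of both, stood at 7.94 and 12.69 TPM, a range that overlapped that of Cdk8. By gene TPM, which sums all transcript types, the same paralogue of all 3 pairs was the higher in both libraries and in both quantifications. Coding transcripts took 34.6% of the TPM of Med13l and 92.1% of that of Med13, and among them the order reversed. The coding Med13-201 stood at 18.14 and 27.21 TPM, Med13l-201 at 11.14 and 13.87, and Med13l-202 at 0.90 and 1.09. In the second quantification they stood at 10.90 and 15.45, 6.17 and 6.55, and 2.70 and 3.68 TPM. The pseudogene Gm7107, which copies 45.9% of Cdk8, was listed at 0 in both libraries.

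The head module binds the polymerase directly. Its median was 4.06 TPM, with Med8 highest at 16.29 and 15.30 TPM, then Med20 at 10.75 and 12.74 and Med6 at 6.89 and 6.17. In the first quantification Med18 and Med30 were the lowest, at 0.70 and 0.66 TPM and at 0.44 and 0.82 TPM, each from 25 counts or fewer. Med17, the central subunit of the head, stood at 5.48 and 3.74 TPM. The other 5 head genes had means from 1.96 (Med22) to 4.45 (Med28). The head is thus built from genes whose RNA levels covered a wide range, and Med8 lay far above Med18 although their products sit in the same module.

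Middle module genes had a median of 6.59 TPM. Med1, the subunit that nuclear receptors contact, stood at 9.32 and 13.88 TPM, Med10 at 9.67 and 12.47, and Med21 at 8.07 and 11.42. The ranges of these 3 overlapped in the first quantification. In the second, Med1 was above the others, at 10.84 and 15.93 TPM, with Med10 at 5.22 and 6.47 and Med21 at 5.67 and 7.47. Med31 stood at 1.20 and 1.89 TPM and Med9 at 1.11 and 0.98, the lowest of the module. Med26, which links Mediator to elongation factors, stood at 4.93 and 4.51 TPM, and the remaining Med4, Med7 and Med19 had means from 3.69 to 7.86. Med10 is covered on the opposite strand by the long noncoding gene Gm26819 over 92.8% of its exon bases. Gm26819 itself was given a mean of 1.88 TPM.

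Among scaffold and tail genes, Med15 stood alone. Its product is a target of activators such as the sterol-regulated factors, and its level was 52.58 TPM in replicate 1 and 64.72 in replicate 2 (chromosome 16, 17651208 to 17732891). By gene TPM it was the highest of all 60 genes in each library and stood at percentile 92.7 of the genes tested. Coding transcripts took 29.1% of its TPM, and among them Med13 was above Med15. The highest of them for Med15 was Med15-201 at 9.99 and 10.66 TPM, beside 18.14 and 27.21 for Med13-201. Med23 followed at 9.14 and 10.53 TPM and Med25 at 2.97 and 4.46; the products of both are also contacted by activators. Med14, the backbone that joins head, middle and tail, stood at 2.50 and 3.91 TPM. Med24 stood at 2.44 and 3.23 TPM and Med16 at 1.52 and 1.79. In each library the 5 genes other than Med15 were at most 10.53 TPM, so the group median of 3.46 TPM does not describe Med15.

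Integrator genes had a median of 3.31 TPM, with 3 genes far above the rest by gene TPM. Ints13 stood at 17.50 and 27.12 TPM (chromosome 6, 146549632 to 146577835), Ints8 at 15.38 and 23.25, and Ints6 at 14.46 and 14.73. Ints6 and Ints8 form the module that binds protein phosphatase 2A, and both exceeded 10 TPM in each library by gene TPM. Coding transcripts took 18.1% of the TPM of Ints6, and among them Ints6 was not far above the rest. Ints6-202 stood at 2.10 and 2.97 TPM and Ints6-201 at 0.22 and 0, beside 2.25 and 3.23 for the coding Ints12-201. The cleavage module was low: Ints11, the endonuclease, stood at 2.32 and 3.07 TPM, its inactive partner Ints9 at 0.96 and 1.84, and Ints4, which holds them together, at 1.79 and 2.82. Both phosphatase genes were above all 3 cleavage genes in both libraries and in both quantifications. Ints13 belongs to an arm with Ints10 and Ints14, but those stood at 1.55 and 3.10 TPM and at 2.32 and 3.51. The backbone genes Ints1, Ints2 and Ints7 and the others ranged from a mean of 1.71 (Ints5, at 1.71 and 1.70) to 7.38 (Ints1). The gene 6330549D23Rik holds a near copy of 39.4% of Ints14, and Pusl1 covers 22.7% of the Ints11 exon bases on the opposite strand.

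The libraries agreed closely in the order of the members, with a Spearman correlation of 0.957 across the 60 genes, which share both libraries and are not independent. On the ratio of replicate 2 to replicate 1, computed as the log2 difference of TPM + 0.1 and centred on the median of the genes tested, the 57 members at a mean of at least 1 TPM had a median of 0.00. The pseudocount of 0.1 makes the ratios of low genes somewhat too small. With 1 library against 1 there is no test; 5 of 57 differed by more than 1.5-fold (background 16.7% of 9010 genes), 4 of them lower in replicate 2 (background 10.6%) and 1 higher (background 6.09%). The members' share was below the background. By TMM-scaled counts, a scaling across all genes, 5 of 57 were beyond the limit (background 12.2%), all 5 lower (background 8.94%), and in the second quantification 10 of 54 (background 22.5%).

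The lower genes were Polr2j (log2 ratio -1.34), Polr2g (-1.12), Med17 (-0.93) and Polr2d (-0.60), and the higher gene was Cdk19 (0.65). For Polr2g the estimated counts fell from 199 to 58, for Polr2j from 44.8 to 13, and for Med17 from 351 to 149, while the totals of the libraries differed less. By TMM-scaled counts these 3 genes were 2.28-fold, 2.19-fold and 1.58-fold lower in replicate 2, and they were beyond 1.5-fold in the second quantification too, with log2 ratios of -0.90, -1.01 and -0.70. The deposited interval of Polr2g ran from 8.29 to 11.27 TPM in replicate 1 and from 4.46 to 8.25 in replicate 2, which did not overlap before or after centring. Polr2d was beyond 1.5-fold in the second quantification (-0.996) but not by TMM-scaled counts. Cdk19 was 1.49-fold higher by TMM-scaled counts and had a log2 ratio of 0.39 in the second quantification, where its mean was below 1 TPM. Among all members tested, the centred deposited intervals of 6 did not overlap with replicate 2 lower (background 15.8%) and of 2 with replicate 2 higher (background 10.6%), Cdk19 and Med13.

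**Figure D2:**
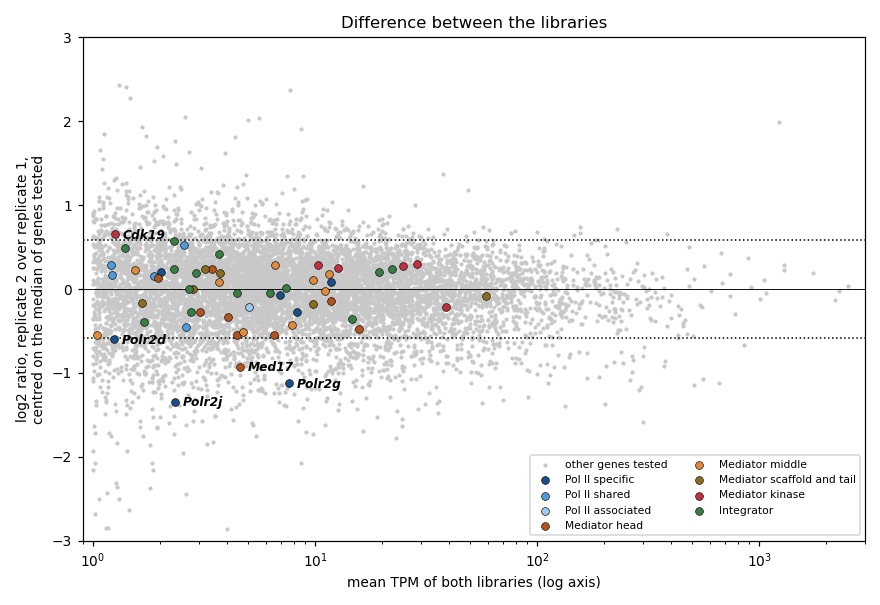
Log2 ratio of replicate 2 to replicate 1, centred on the median of the genes tested, against the mean TPM of both libraries (log axis); coloured points are the 57 subunit genes, grey points the other genes tested, and dotted lines mark 1.5-fold. The 5 named genes lie outside the lines, with Polr2j and Polr2g the farthest below; 20 other genes lie beyond the axes.

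By module, the ratios differed in sign. The median centred log2 ratio was -0.33 for the head, with 7 of 9 genes below 0. For the kinase module it was 0.28, with 5 of 6 above 0. Among all genes tested, centring puts 4505 of 9010 below 0. By TMM-scaled counts, also centred, the medians were -0.28 and 0.24, and in the second quantification -0.39 and 0.13. In each of these, 6 of 9 head genes were below 0 and 5 of 6 kinase genes above. The middle module was less settled, with a median of 0.08 by TPM but -0.15 by TMM-scaled counts. Scaffold and tail genes had a median of -0.04 by TPM, with 3 of 6 below 0, and 0.06 by TMM-scaled counts. Gene span moved with these values. Head genes tested had a median span of 9.05 kb and kinase genes of 81.1 kb, and over all genes tested the median ratio went from -0.20 in the quartile of shortest genes to 0.12 in the quartile of longest genes. The part of span in the module values was not tested.

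Span went weakly with level. From first to last annotated base the members ran from 1.44 kb (Polr2i) to 313 kb (Med12l), and 11 of 13 polymerase II genes were shorter than the median gene tested, 24.5 kb. Across the 60 members the Spearman correlation of span with mean TPM was 0.314, against 0.137 over all genes tested. The sets are unlike, since the 60 include Med12l, Med18 and Med30, which have means below 1 TPM. Within the complexes the correlation was 0.505 for polymerase II (n = 13), 0.180 for Mediator (n = 33) and 0.033 for Integrator (n = 14). These correlations are across genes of the same libraries and are descriptions only. Members in the quartile of shortest genes, up to 10.7 kb, had a median of 2.63 TPM (21 genes), where all genes tested there had 5.24. Members in the quartile of longest genes, above 54.3 kb, had 7.97 TPM (12 genes), where all had 9.52. The members include Med18 in the shortest and Med12l in the longest quartile, which are not among the genes tested.

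**Figure D3:**
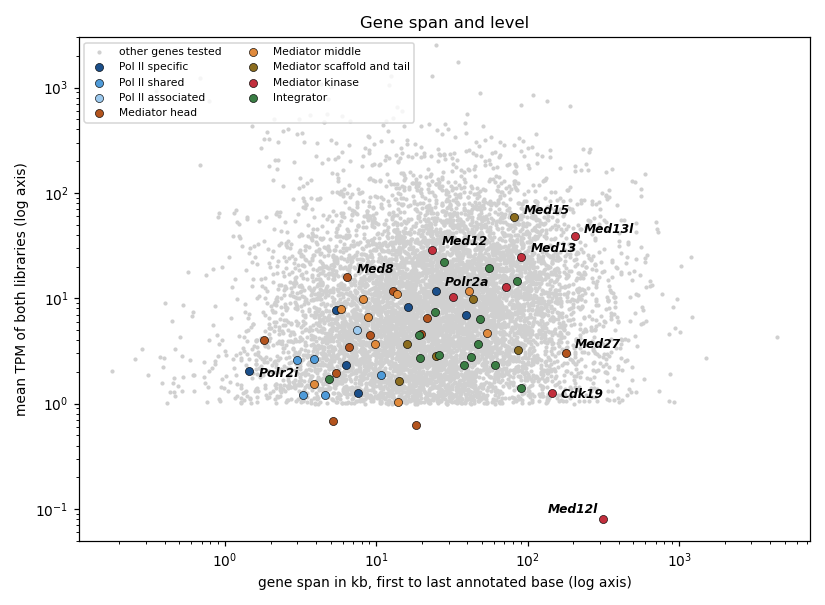
Mean TPM of both libraries against gene span in kb (both log axes) for the 60 subunit genes (coloured) and the other genes tested (grey). The polymerase II genes crowd at the left below 24.5 kb except Polr2a and Polr2b, and Med12l is the longest member and the lowest.

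Some subunit genes gave most of their TPM to transcripts that are annotated as retaining an intron. Of the 57 members tested, 37 have such a transcript (background 64.4%). Polr2e is shown because its share was the highest, and both introns inside its leading transcript, Polr2e-202, are short: chr10:80036599-80036763 (165 bases) and chr10:80036843-80036914 (72 bases), minus strand, mm10, from GENCODE M21. Polr2f is shown because its leading retained-intron transcript, Polr2f-204, is where the quantifications part, over chr15:79151408-79151588 (181 bases, plus strand). Each is printed 5′ to 3′ with 15 coding bases on either side in lower case; capitals mark the first 6 and last 3 bases of the intron, which belong to the splice sites.
Polr2e intron of 165 bases: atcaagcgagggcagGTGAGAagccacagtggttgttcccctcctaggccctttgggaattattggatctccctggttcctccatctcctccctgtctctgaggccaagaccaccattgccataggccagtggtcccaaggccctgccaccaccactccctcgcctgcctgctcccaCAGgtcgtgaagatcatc
Polr2e intron of 72 bases: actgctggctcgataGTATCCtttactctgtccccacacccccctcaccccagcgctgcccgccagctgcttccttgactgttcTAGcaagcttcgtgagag
Polr2f intron of 181 bases: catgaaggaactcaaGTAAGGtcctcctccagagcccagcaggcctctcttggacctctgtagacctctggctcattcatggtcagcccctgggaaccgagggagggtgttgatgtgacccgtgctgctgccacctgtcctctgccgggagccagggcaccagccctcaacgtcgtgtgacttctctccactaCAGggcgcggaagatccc

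Longer retained introns are shown by their 5′ splice sites alone, with 15 coding bases in lower case and the first 6 intron bases in capitals. They are Med20-203 (chr17:47619063-47622884, plus strand, 3822 bases), Med4-202 (chr14:73510186-73511154, plus strand, 969 bases) and Med10-203 (chr13:69813807-69815590, plus strand, 1784 bases), the leading retained-intron transcripts of their genes.
Med20 5′ splice site: ggcatctctgtggagGTAAGA
Med4 5′ splice site: ggaggtcttgtcgagGTAACC
Med10 5′ splice site: atcgacacaatgaagGTGAGG
Of the 37 members with a retained-intron transcript, the leading ones of 11 held 17 whole introns with coding sequence on both sides, alternative ends counted separately. Med31, Med21 and Ints6 were not among the 11. The same counts over all genes were not computed. All 17 began with GT and ended with AG, the usual ends of introns. Their median length was 969 bases, from 69 (Ints11) to 3822 (Med20), and 11 of 17 were shorter than the median coding intron of their own gene. The Polr2e introns printed are the 2 shortest of its 5 coding introns.

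Over the 37 members, the median share of TPM given to retained-intron transcripts was 41.1%, beside 34.6% over the 5805 genes tested that have such a transcript. It was 42.3% in replicate 1 and 40.8% in replicate 2. By estimated counts, which are not divided by length, it was 23.5%, beside 21.03%. At 50% or more stood 12 of 37 members (background 26.6%). The highest were Polr2e at 77.7% in replicate 1 and 72.0% in replicate 2, Med20 at 71.6% and 73.3%, Med31 at 83.3% and 56.8%, Med21 at 75.6% and 46.3%, and Ints6 at 57.2% and 64.1%. Ints1, Ints9, Med24, Med15, Med4, Ints13 and Polr2b followed, with shares of the mean from 58.2% down to 50.3%. The lowest were Med13 at 7.05%, Polr2i at 9.18% and Med14 at 9.57% of the mean. By library these were 5.22% and 8.88%, 0% and 18.4%, and 17.6% and 1.53%. The share of Polr2i rests on 1.72 counts of Polr2i-204 in replicate 2. For Polr2e and Med20, the shares by estimated counts were as high, 79.5% and 84.2%. On the opposite strand, the pseudogene Kpna2-ps covers 21.4% of the exon bases of Med20, and 4930563E22Rik 26.3% of those of Med31. For Med21, Gm6654 covers 9.88% and Tm7sf3 5.59%. Whether reads of these neighbours entered the shares was not tested. For Polr2b the share by counts was 3.21%, since its transcript Polr2b-203 reached 2.67 and 2.89 TPM from 5.31 and 3.03 counts. The tables hold no model of unspliced precursor RNA, so precursor RNA and mature RNA that keeps an intron cannot be told apart here.

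**Figure D4:**
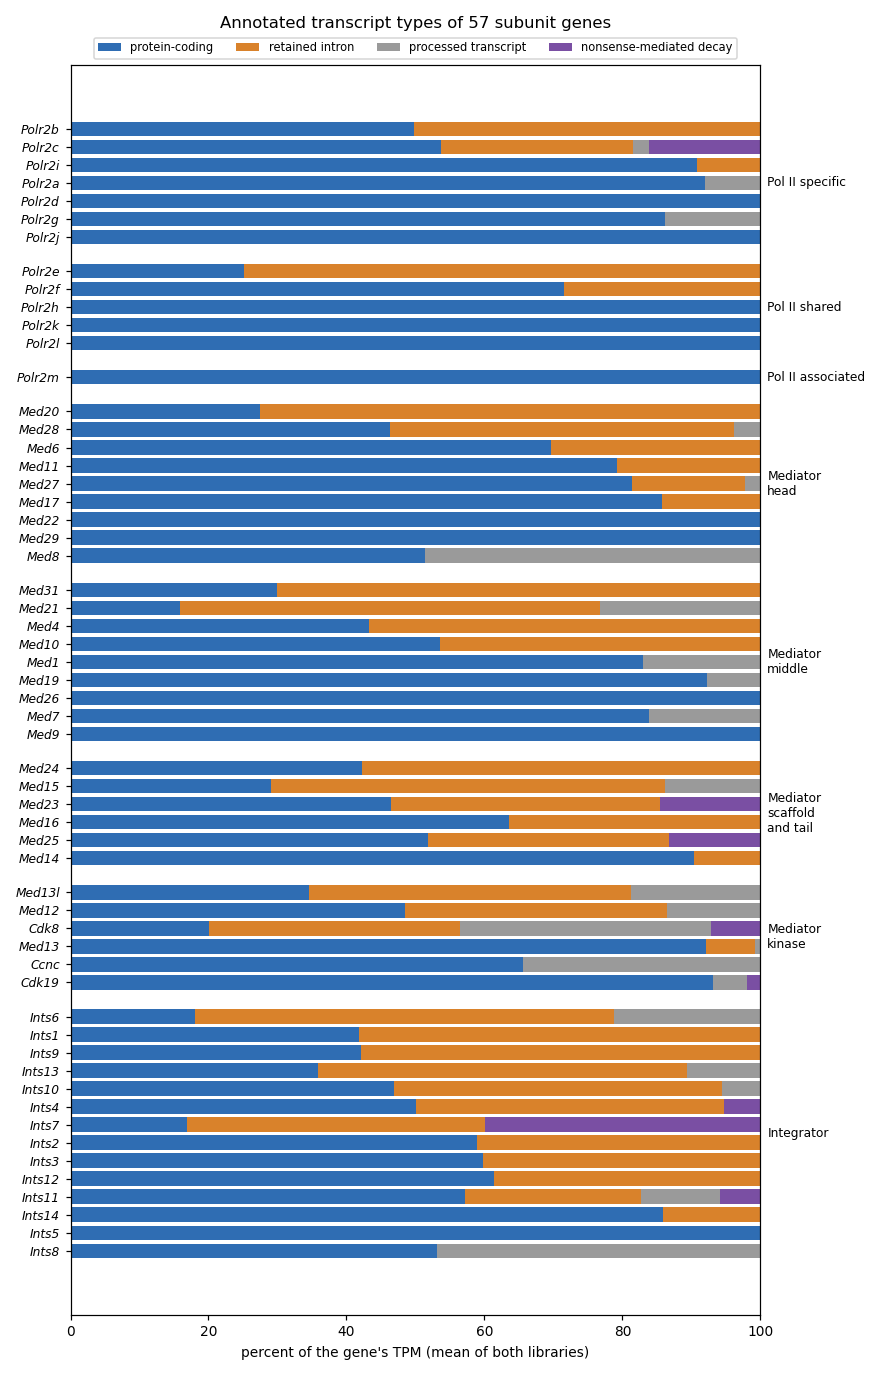
Percent of each gene's TPM (mean of both libraries) given to protein-coding, retained-intron, processed and nonsense-mediated decay transcripts, for the 57 subunit genes tested, grouped by module. Polr2e and Med20 show long retained-intron bars of 74.8% and 72.5%, and the genes at 100% protein-coding, such as Polr2h, have no other transcript type with TPM.

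Protein-coding transcripts took a median of 61.3% of the TPM of the 57 members, beside 67.5% over all genes tested. Under 50% stood 19 of 57 (background 29.7%), and the leading transcript was of another type in 16 (background 23.3%), in 14 of them a retained-intron transcript. Med15, the highest member by gene TPM, gave 57.1% of its TPM to retained-intron transcripts. Its leading transcript on the mean was the retained-intron Med15-209 at 8.75 and 18.67 TPM, with the coding Med15-201 next at 9.99 and 10.66. Cdk8 was led by the processed transcript Cdk8-209, at 3.18 and 6.35 TPM, and its coding transcripts took 20.1%. Cdk19, in contrast, gave 93.1% to coding transcripts. The group medians of the coding share were 91.9% for polymerase II, 64.5% for Mediator and 51.5% for Integrator, but 8 of 13 polymerase II genes have no annotated retained-intron transcript, where 2 of 14 Integrator genes have none.

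The second quantification, made from the read files, ordered the members much as the first did, with a Spearman correlation of 0.922 across the 60 genes. After centring, 13 of 53 members at a mean of at least 1 TPM in each differed by more than 1.5-fold (background 24.6%). Of the 13, 10 were higher in the second. The share of all genes in that direction was not computed, so no lean of the members can be read from it. The largest differences of all 60 were Ints10 (2.80-fold higher in the second), Med27 (2.73-fold), Polr2f (2.53-fold), Med16 (2.29-fold) and Med18 (2.21-fold), the last of which has a mean below 1 TPM. For Ints10 the gap sat in the retained-intron transcript Ints10-206, at 0.33 and 0.45 TPM in the first and 3.33 and 5.87 in the second. Polr2f-204, whose intron is printed above, went from 0.34 and 0.44 TPM to 2.57 and 4.47, and Med16-202 from 0.13 and 0.10 to 1.67 and 2.29. For Med27 it was the coding transcript Med27-202, at 0.57 and 1.80 TPM in the first and 1.53 and 7.67 in the second. Which transcript led was the same in both quantifications for 36 of 57 members, and its type for 43. The same shares over all genes were not computed.

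**Figure D5:**
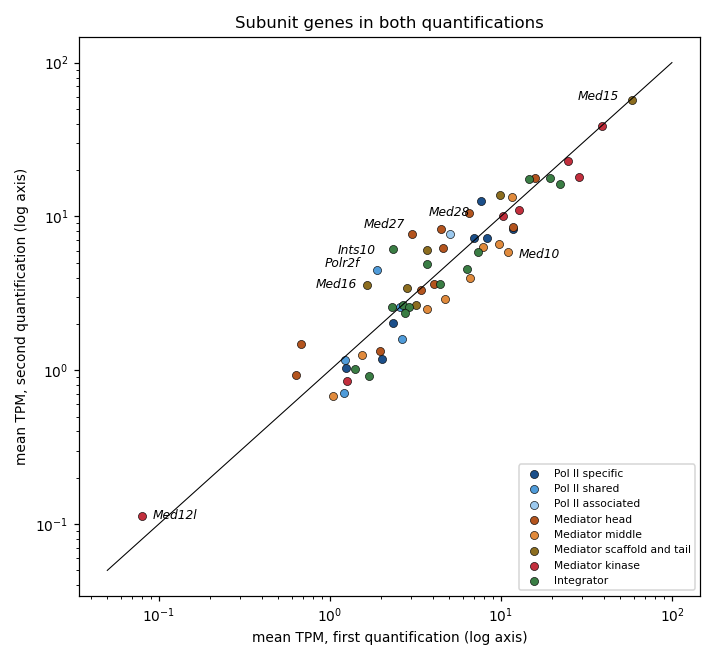
Mean TPM of each of the 60 subunit genes in the second quantification against the first (both log axes), with the line of equality. Most lie near the line, and Ints10, Med27, Polr2f and Med16 lie above it.

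Other genes of the same pathway give the setting. For the counts beyond 1.5-fold in these lists, the background over the genes tested was 6.09% higher and 10.6% lower in replicate 2. Of 26 genes of pausing and elongation, all 26 reached 1 TPM in each library and 14 reached 10 TPM, with a median of 13.05 TPM. Ell2, a subunit of the super elongation complex, was the highest at 71.20 and 108.74 TPM, and Nelfa, of the negative elongation factor, the lowest at 1.74 and 1.94. Of the 26, 1 gene was more than 1.5-fold higher in replicate 2, Cdc73 at 12.04 and 28.07 TPM, and 0 were lower. Of 17 genes of 3′ processing and termination, 16 reached 1 TPM and 9 reached 10 TPM, with a median of 13.97 TPM, from Nudt21 (0.86 and 1.42) to Pabpn1 (51.15 and 48.47). In that list 0 were higher in replicate 2 and 1 was lower, the RNA kinase gene Clp1 at 2.93 and 2.17 TPM. By TMM-scaled counts Cdc73 was 1.46-fold higher and Clp1 1.57-fold lower. The medians of both lists were above those of polymerase II (2.58), Mediator (4.61) and Integrator (3.31).

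The general initiation factors were closer to the subunit genes. Of 31, 27 reached 1 TPM in each library and 3 reached 10 TPM, with a median of 3.33 TPM, from Gtf2h4 (1.20 and 0.65) to Gtf2b (18.73 and 25.38). Of 29 tested, 3 were higher in replicate 2 (background 6.09%), Taf3 (0.89 and 2.46 TPM), Taf11 (8.19 and 18.34) and Taf8 (2.53 and 5.19). Another 2 were lower (background 10.6%), Ercc2 (8.31 and 5.48) and Gtf2e2 (3.03 and 2.45). By TMM-scaled counts 1 of these 5, Taf3, stayed beyond 1.5-fold (1.88-fold higher), and Taf11 changed sign (log2 ratio -0.16). The 11 phosphatases and readers of the polymerase tail had a median of 7.07 TPM, from Ctdspl (0.32 and 1.05) to Scaf4 (22.22 and 29.87), with 0 of 10 tested beyond 1.5-fold in either direction. The 4 assembly factors of polymerase II were low, with a median of 1.27 TPM, from Gpn3 (0.72 and 0.99) to Gpn1 (1.84 and 2.86). Among 4 Integrator partners, Ints6l, the paralogue of Ints6, was highest at 18.78 and 24.54 TPM and the single-stranded DNA binding gene Nabp2 lowest at 1.22 and 1.12. None of the tested genes of these last lists was beyond 1.5-fold.

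Subunits of the other nuclear polymerases that polymerase II does not share were also low. The 8 genes of RNA polymerase I had a median of 1.46 TPM, from Polr1e (0.41 and 0.86) to Polr1d (4.83 and 5.88), and 0 of 6 tested were beyond 1.5-fold. The 11 genes of RNA polymerase III had a median of 3.90 TPM, from Polr3g (0.13 and 0.17) to Polr3c (14.92 and 17.30). Of 9 tested, Polr3b was higher in replicate 2 (2.35 and 5.03) and Polr3gl lower (3.99 and 3.43), by 1.23-fold and 1.12-fold with TMM-scaled counts. The medians of the polymerase I list and of the 5 shared subunits were close in the first quantification, 1.46 and 1.88 TPM. In the second they were 2.66 and 1.59 TPM, in the other order. The polymerase II-specific subunits were above both in each, at 6.96 and 7.21 TPM.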

How the data were processed

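Total RNA of the nucleoplasmic fraction was measured in 2 libraries, 1 per replicate, from 1 µg and 500 ng of starting RNA, per the labels. Per the file headers and notes, the authors quantified genes and transcripts from an alignment to the transcriptome (mm10, GENCODE M21), and made the second transcript table from 10 read files. The choice of aligner, quantifier and strand setting was not given in the sources used here. Estimated counts, as deposited, need not be whole and were rounded only for scaling. TPM, as deposited, share a common total over all features, small RNAs included. FPKM, as deposited, served as an alternative. Interval bounds around TPM (deposited, unit signal) have no stated level. Other deposited columns are lengths.

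Annotation and sequences came from GENCODE M21. Members and lists were chosen with earlier results of these data known. With 1 group, no test between conditions was possible and no p-value is given. Ratios used log2 (TPM + 0.1), genes with a mean of 1 TPM or more, and a limit of 1.5-fold. Near copies were sought with BLAST over at least 100 bases. Alternatives were scaling by edgeR 4.0.16 (TMM, prior count 2) or DESeq2 1.42.0, the second quantification, other filters, FPKM, TPM rescaled to genes with a protein-coding transcript, and single libraries. The ratio calculation was tested on simulated data. R 4.3.3 and Python 3.11.15 with numpy 2.4.6, pandas 2.3.3 and matplotlib 3.10.9 were used. The genes named with a value per library were all polymerase II and kinase genes, the 3 highest and 2 lowest of the other groups, those beyond 1.5-fold, the 5 highest and 3 lowest retained-intron shares, the 5 that differed most between quantifications, and the highest, lowest and beyond-limit genes of the pathway lists. Other members named with values were chosen after their values were seen.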

Additional observations from a re-analysis of the deposited data

How the results depend on the processing

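The TPM medians of 3.89 (all members), 2.58 (polymerase II), 4.61 (Mediator) and 3.31 (Integrator) depend on what the unit is scaled to. Rescaled to genes with a protein-coding transcript they were 13.3, 8.96, 16.8 and 10.8. In FPKM the first 3 were 5.16, 3.31 and 6.38, and in the second quantification all members had 4.51 and Mediator 6.03. From single libraries they ranged from 3.52 to 4.24, 2.57 to 2.69, 4.46 to 4.93 and 2.66 to 4.12. The 9 members at 10 TPM or more became 33 after rescaling and 17 in FPKM, and 9 to 16 in single libraries. The 5 members beyond 1.5-fold became 10 in the second quantification, 3 with a pseudocount of 1 and 1 at a mean of 5 TPM or more, where only 25 members were tested. The coding share of 61.3% became 45.7% in the second quantification, 83.8% by estimated counts and 49.8% in genes at 5 TPM or more, and 64.9% to 65.0% in single libraries. The retained-intron share of 41.1% became 49.1%, 23.5% and 46.6% under the same settings, and 40.8% to 42.3% in single libraries. The median ratio of the members stayed between -0.07 and 0.08 under all settings tried. No paired analysis was possible because there is 1 group only. Depth limits the 13 members with fewer than 50 counts in a library. With 2 libraries, no group was large enough to look for outlying samples.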
